A study of Homo sapiens with 9 samples.

Results

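Translation initiation and elongation factors were followed across metformin doses in the established cell line A375, derived from a human melanoma. The set holds every gene of protein-coding type in the deposited table whose symbol starts with EIF or EEF, leaving out the stress kinases EIF2AK1 to EIF2AK4 and readthrough loci with a hyphen in the symbol. It came to 65 of the 37118 genes listed, and includes EIF4EBP1, a repressor of initiation. Metformin is a biguanide drug given for type 2 diabetes. Cells labelled wild type in genotype received 0, 20 or 40 mM of it, with 3 libraries of polyadenylated RNA per dose and 9 in all. The exposure time is not in the labels, which also do not say whether the replicates came from separate cultures. What the p-values weigh is thus the scatter among these libraries alone, and that scatter may be technical.

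Protein synthesis starts when eIF2 brings the initiator transfer RNA to the small ribosomal subunit, eIF3 holds that subunit open, and eIF4F recruits it to the messenger's cap. eIF2B reloads eIF2 with GTP, and stress kinases slow that step by phosphorylating the eIF2 alpha subunit. The 4E-BP proteins block the cap-binding protein eIF4E until the kinase mTORC1 phosphorylates them. During elongation eEF1A delivers aminoacyl transfer RNA, the eEF1B complex recycles eEF1A, eEF2 moves the ribosome along, and the kinase eEF2K slows eEF2. Messengers of ribosomal proteins and of many of these factors begin with a C followed by a run of pyrimidines, the terminal oligopyrimidine (TOP) tract, through which their translation and stability follow mTORC1.

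Library totals ran from 65738242 to 75629413 counts. Of the 65 genes, 63 reached a mean of 1 FPKM (fragments per kilobase of transcript, scaled to sequencing depth) over the 9 libraries and entered edgeR's quasi-likelihood test with 12394 genes in all. EIF4EBP3 and EIF4E3, with means of 0.226 and 0.0739 FPKM, did not. The set took 2.84% ± 0.0345 (SD, n = 3) of all counts without metformin, 2.89% ± 0.0462 at 20 mM and 2.62% ± 0.0971 at 40 mM. Replicate 3 of 40 mM stood lowest, at 2.51%, against 2.66% and 2.69% in the other libraries of that dose. It also had the fewest counts of the 9, and 4.36% of them were mitochondrial against 3.01% and 3.27% in the other libraries at 40 mM. The part of that share in the results was not tested. Without this library, 12 factors were higher and 34 lower at 40 against 0 mM. Of 8 melanocyte lineage markers 3 reached 1 FPKM, and SOX10 stood at 104 FPKM without metformin. PMEL, MLANA, TYR, DCT and TFAP2A, markers of pigment cells, lay under 1 FPKM at every dose. Of 8 markers of other cell types 1, KRT14, reached 1 FPKM. The melanocyte markers summed to between 105.9 and 131 FPKM at 0 mM, 106 and 114 FPKM at 20 mM, and 80.2 and 118 FPKM at 40 mM. The other markers summed to between 7.35 and 8.27, 6.67 and 7.55, and 9.26 and 10.1 FPKM. In bulk RNA, fewer cells of a type and less RNA per cell cannot be told apart.

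More of the factors fell than rose, and more so at the higher dose. Here a gene rose or fell when its Benjamini-Hochberg adjusted p in edgeR, over all 12394 genes, was under 0.05. At 20 against 0 mM 12 of the 63 tested factors rose and 18 fell, where 16.3% of all tested genes were higher and 15.2% lower. At 40 against 0 mM 11 rose and 33 fell, where 28.8% of all tested genes were higher and 27.4% lower. Between the doses, at 40 against 20 mM, 1 rose and 24 fell, where 14.3% of all tested genes were higher and 15.1% lower. As shares of the 63, the genes that fell made up 28.6%, 52.4% and 38.1%, and those that rose 19.0%, 17.5% and 1.59%. The median log2 change of the factors was -0.06, -0.15 and -0.11 in the same order, and that of all tested genes was 0.001, -0.001 and -0.0004.

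The changes were small. With TMM scaling none reached 2-fold at 20 mM, and at 40 mM EEFSEC and EEF1AKMT1 fell by more than 2-fold. EEF1A2 rose at 40 mM by 0.99 on the log2 scale, just short of 2-fold, and by 1.07 under TPM scaling, past it. Compared with 0 mM, 8 factors rose at both doses, 18 fell at both and 0 were called in opposite directions. Another 15 fell at 40 mM without a call at 20 mM, and 14 of the 63 were called in no comparison. These comparisons share their libraries, so the counts are not independent of each other. Such patterns over the doses were not counted for all tested genes, so these counts describe the 63 alone. When libraries were scaled to TPM, a sum of length-corrected levels, instead of by TMM, the factors that rose and fell numbered 12 and 15, 12 and 24, and 4 and 14. Of all 12394 tested genes 2011 then rose and 1644 fell, 4437 and 2493, and 2832 and 1153. Under TPM scaling the median log2 change of the factors was -0.05, -0.07 and -0.04, and that of all tested genes 0.008, 0.076 and 0.069. That scaling raised the share of higher genes among all calls from 51.3% to 64.0% at 40 against 0 mM and from 48.7% to 71.1% at 40 against 20 mM. Limma on log2(FPKM + 1) put the latter share at 59.9%, and on log2(FPKM + 0.1) at 59.4%. With each of the 9 libraries left out in turn, 19 of the 30 calls at 20 mM, 33 of the 44 at 40 mM and 17 of the 25 between doses were kept in every run. Of the factors not called, 10 of 33 at 20 mM, 7 of 19 at 40 mM and 11 of 38 between the doses were called in at least 1 such run. Without replicate 3 of 40 mM alone, 10, 4 and 5 were. Of the 14 called in no comparison, 7 were called in at least 1 run.

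**Figure D1:**
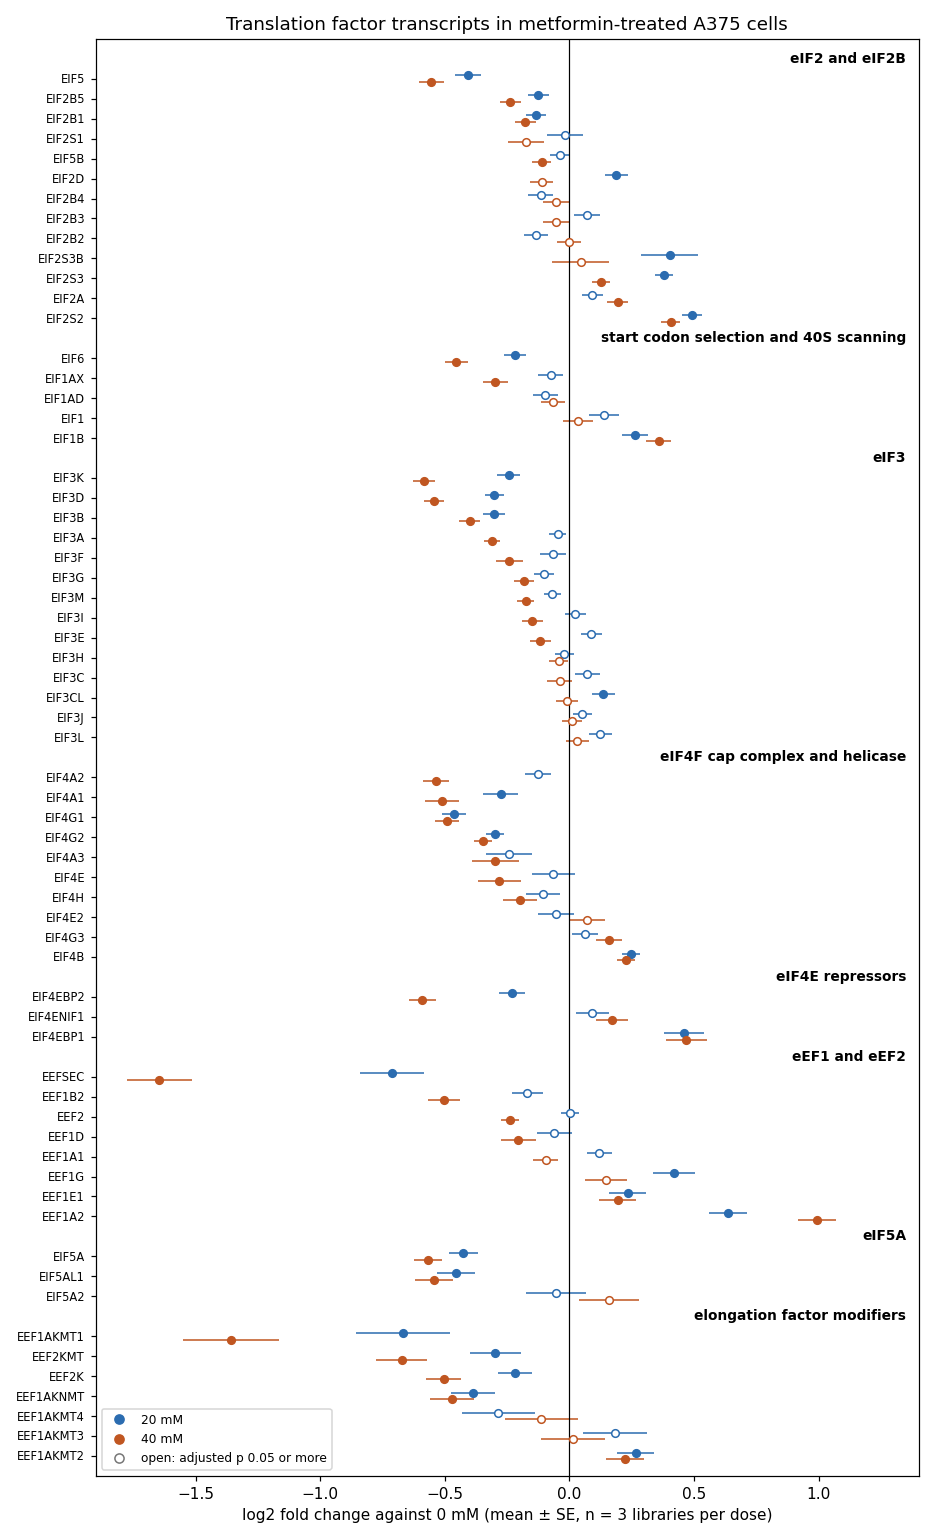
Log2 fold change of each of the 63 tested factors at 20 mM (blue) and 40 mM (orange) metformin against 0 mM, grouped by role, as edgeR estimate ± SE with 3 libraries per dose. Filled points had an adjusted p under 0.05, 30 of them at 20 mM and 44 at 40 mM, and the widest falls are those of EEFSEC and EEF1AKMT1.

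The first bases of the transcripts are shown because calls are counted separately for factors with and without a pyrimidine tract there. RefSeq start sites (GRCh38.p14) were found for 51 of the 65 genes. EEF1A2, EEF1D, EIF2S2, EIF3A, EIF3CL, EIF3E, EIF3G, EIF3H, EIF3L, EIF4EBP1, EEF1AKMT1, EEF1AKMT3, EEF1AKNMT and EEF2KMT were not matched. Each window runs from 15 bases before the start site to 15 bases from it on, and capitals mark the tract, a C at the start site with every C or T that follows it unbroken. A window was counted when at least 4 such bases followed the C.
EEF1A1 (chr6:73521018-73521047, minus strand): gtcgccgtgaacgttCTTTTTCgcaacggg
EEF1B2 (chr2:206159880-206159909, plus strand): ccggtctcttcgggtCCTTTTTCCTCTCTT
EEF2 (chr19:3985449-3985478, minus strand): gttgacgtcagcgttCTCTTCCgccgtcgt
EIF3D (chr22:36529152-36529181, minus strand): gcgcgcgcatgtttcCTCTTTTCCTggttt
EIF3K (chr19:38619173-38619202, plus strand): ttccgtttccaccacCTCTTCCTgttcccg
EIF4A2 (chr3:186783562-186783591, plus strand): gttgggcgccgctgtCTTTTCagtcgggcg
EIF2S3 (chrX:24054941-24054970, plus strand): ggggtgatttccttcCTCTTTTggcaacat
EIF4B (chr12:53006441-53006470, plus strand): ttgcctcatccgggtCTTTTgcgttctctt
EIF2S1 (chr14:67360313-67360342, plus strand): gcgaggaggttccgcatgcgcggtggagtg
EIF1B (chr3:40309692-40309721, plus strand): tcggccattttgtgcgagaagccgcagcgc
EIF4E (chr4:98929119-98929148, minus strand): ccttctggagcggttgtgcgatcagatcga
EEFSEC (chr3:128153466-128153495, plus strand): tgaggggcgggccgggcgggtgtccgaggc
The lower-case windows of EIF2S1, EIF1B, EIF4E and EEFSEC hold no such tract and are shown for contrast. The tract was present in 13 of the 51 factors, 25.5%, and in 5.14% of the 27305 genes with RefSeq start sites. Those 27305 include genes too low to be tested here, unlike nearly all of the factors. Of tested genes outside the set 678 carried the tract and 8162 did not. The 13 are EEF1A1, EEF1B2, EEF2, EIF2A, EIF2D, EIF2S3, its near-copy EIF2S3B, EIF3D, EIF3F, EIF3K, EIF3M, EIF4A2 and EIF4B. EEF1B2 and EIF2S3B each have a further RefSeq start site without it. A match describes the letters at the annotated start and does not show which start these cells used.

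In the eIF2 and eIF2B group the beta and gamma subunits of eIF2 rose, while EIF5 and EIF2B subunits fell. Of its 13 tested genes 4 rose and 3 fell at 20 mM, 3 rose and 4 fell at 40 mM, and 0 rose and 3 fell between the doses. Those that rose were 30.8%, 23.1% and 0% of the 13, against 16.3%, 28.8% and 14.3% of all tested genes. Falls were 23.1%, 30.8% and 23.1%, against 15.2%, 27.4% and 15.1%. At 40 mM both shares thus lay near those of all tested genes. Under TPM scaling the 13 gave 4 higher and 1 lower, 3 and 2, and 2 and 2. EIF2S2, the beta subunit of eIF2 (ENSG00000125977, chromosome 20, 34088309 to 34112243, minus strand by the deposited positions, of unstated build), stood at 111, 113 and 114 FPKM at 0 mM. It reached 153, 161 and 162 FPKM at 20 mM and 149, 151 and 158 FPKM at 40 mM. Every treated library lay above every untreated one, and the doses overlapped each other. The log2 change was 0.49 ± 0.04 at 20 mM (adjusted p 1.1e-05) and 0.41 ± 0.04 at 40 mM (adjusted p 1.1e-05, edgeR).

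EIF2S3, the gamma subunit that binds GTP and the initiator transfer RNA, rose at both doses and then stood lower at 40 than at 20 mM. It measured 76.7, 75.6 and 77.6 FPKM at 0 mM, 97.9, 99.997 and 101 FPKM at 20 mM and 86.5, 87.6 and 83.1 FPKM at 40 mM, with no overlap between any pair of doses. Its log2 changes were 0.38 ± 0.04 (adjusted p 3.7e-05), 0.13 ± 0.04 (adjusted p 0.011) and -0.25 ± 0.04 between the doses (adjusted p 0.00081). The rise at 40 mM was lost without replicate 2 of 0 mM, with a log2 change of 0.11 and an adjusted p of 0.052. EIF2S1, the alpha subunit that stress kinases phosphorylate, was called in no comparison. Its libraries held 26.1, 24.9 and 24.8 FPKM at 0 mM, 24.5, 25.9 and 24.6 FPKM at 20 mM and 24.1, 24.8 and 19.8 FPKM at 40 mM, the lowest being replicate 3 of 40 mM. Without replicate 1 or replicate 2 of 40 mM EIF2S1 was called lower at 40 mM (-0.21 and -0.24, adjusted p 0.047 and 0.024). The changes of the 3 subunits at 20 mM were thus -0.02, 0.49 and 0.38 on the log2 scale for alpha, beta and gamma. EIF2S2 lies across from RALY on the other strand, which covers 20000 of its 23935 bases, and no source used here gives the strand used in counting.

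EIF5, which makes eIF2 hydrolyse its GTP at the start codon, fell at both doses. It went from 29.2, 28.97 and 29.5 FPKM at 0 mM to 22.0, 22.1 and 22.1 FPKM at 20 mM and 20.9, 21.7 and 18.6 FPKM at 40 mM. All 6 treated libraries lay below all untreated ones, with a log2 change of -0.41 ± 0.05 at 20 mM (adjusted p 0.00024) and -0.55 ± 0.05 at 40 mM (adjusted p 7.5e-06). Of the 5 eIF2B subunits, EIF2B5 and EIF2B1 fell at both doses and EIF2B2, EIF2B3 and EIF2B4 were not called in any comparison, with log2 changes from -0.13 to 0.13. Without replicate 2 or replicate 3 of 40 mM EIF2B2 was called lower at 20 mM (adjusted p 0.034 and 0.026), without replicate 2 of 40 mM it was called higher between the doses (adjusted p 0.02), and without replicate 1 of 40 mM EIF2B3 was called lower there (adjusted p 0.039). EIF2B5, the catalytic subunit, held 7.93, 8.12 and 8.10 FPKM at 0 mM, 7.23, 7.75 and 7.19 FPKM at 20 mM and 7.10, 6.88 and 7.00 FPKM at 40 mM. Its log2 change was -0.13 ± 0.04 at 20 mM (adjusted p 0.044) and -0.24 ± 0.04 at 40 mM (adjusted p 0.0007). At 20 mM the EIF2B5 call was lost in 7 of the 9 runs that left out a library, with adjusted p from 0.051 to 0.15, and EIF2B1 in 5, with adjusted p from 0.059 to 0.11. With TPM scaling the adjusted p at 20 mM was 0.074 for EIF2B5 and 0.089 for EIF2B1, and that of EIF2B1 at 40 mM was 0.12. The same scaling called EIF2B2 higher between the doses (0.20, adjusted p 0.0092).

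EIF2D and EIF2A can place initiator transfer RNA without eIF2. EIF2D rose by 0.19 at 20 mM and stood 0.30 lower on the log2 scale at 40 than at 20 mM, with mean levels of 8.03, 9.16 and 7.60 FPKM over the doses. Its 20 mM call was lost without replicate 2 of 0 mM or replicate 2 of 20 mM, with an adjusted p of 0.052 in each case. EIF2A rose at 40 mM by 0.19 ± 0.04 (adjusted p 0.0027). Under TPM scaling EIF2A was also called higher between the doses (0.17, adjusted p 0.014). SERP1, on the other strand, spans all of EIF2A. EIF2S3B, a retrotransposed copy of EIF2S3 at 3.28 FPKM, had log2 changes of 0.40, 0.04 and -0.36, and reads of the pair may be split between them. EIF5B, which joins the ribosomal subunits, fell by 0.11 at 40 mM (adjusted p 0.028), a call lost without replicate 2 of 0 mM, among other libraries (adjusted p 0.091), and under TPM scaling (adjusted p 0.51).

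Factors that act on start codon selection and subunit joining also split. EIF1B, a homolog of the scanning factor EIF1, rose from 27.7, 26.8 and 26.6 FPKM at 0 mM to 32.2, 33.0 and 32.3 FPKM at 20 mM and 37.1, 36.6 and 32.6 FPKM at 40 mM. No treated library overlapped the untreated ones, and the log2 changes were 0.26 ± 0.05 (adjusted p 0.0033) and 0.36 ± 0.05 (adjusted p 0.00016). EIF1 itself, the more abundant of the pair in FPKM, was not called in any comparison. It held 158, 163 and 158 FPKM at 0 mM, 169.5, 179.6 and 179 FPKM at 20 mM and 178, 175 and 149 FPKM at 40 mM, where replicate 3 of 40 mM was the lowest of the 9. Without that library EIF1 was called higher at both doses, with log2 changes of 0.14 (adjusted p 0.0043) and 0.11 (adjusted p 0.016), and EIF1B was also called higher between the doses (0.15, adjusted p 0.016).

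EIF6 keeps free large ribosomal subunits from joining small ones. It fell from 163, 166 and 152 FPKM at 0 mM through 138, 141 and 135 FPKM at 20 mM to 123, 122 and 115 FPKM at 40 mM, with no overlap between doses. The log2 changes were -0.22 ± 0.05 (adjusted p 0.0043), -0.45 ± 0.05 (adjusted p 1.2e-05) and, between the doses, -0.23 ± 0.05 (adjusted p 0.0037). EIF1AX, a partner of EIF1 in scanning, had 45.0, 43.8 and 44.5 FPKM at 0 mM, 42.6, 43.6 and 40.6 FPKM at 20 mM and 38.2, 38.6 and 34.3 FPKM at 40 mM. It was not called at 20 mM and fell at 40 mM by 0.30 on the log2 scale (adjusted p 0.00045). Between the doses its log2 change was -0.22 (adjusted p 0.0077), which TPM scaling turned to -0.15 (adjusted p 0.073). EIF1AD was not called, with log2 changes of -0.10 at 20 mM and -0.07 at 40 mM.

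In eIF3, which binds the small subunit, falls were more numerous at 40 mM than at 20 mM. Of 14 tested genes 1 rose and 3 fell at 20 mM, 0 rose and 9 fell at 40 mM, and 0 rose and 8 fell between the doses. Falls were 21.4%, 64.3% and 57.1% of the 14, against 15.2%, 27.4% and 15.1% of all tested genes. Rises were 7.14%, 0% and 0%, against 16.3%, 28.8% and 14.3%. EIF3K, a peripheral subunit, and EIF3D, which can bind the cap of some messengers, fell in all 3 comparisons. EIF3K held 74.2, 77.9 and 77.8 FPKM at 0 mM, 62.6, 64.9 and 67.0 FPKM at 20 mM and 52.8, 54.7 and 49.5 FPKM at 40 mM. EIF3D held 47.0, 49.1 and 45.8 FPKM at 0 mM, 38.6, 38.0 and 38.7 FPKM at 20 mM and 32.6, 33.5 and 33.6 FPKM at 40 mM. For both genes each dose lay wholly below the one before it. The log2 changes of EIF3K were -0.24 ± 0.04 (adjusted p 0.0023), -0.58 ± 0.04 (adjusted p 2e-06) and -0.34 ± 0.04 between the doses (adjusted p 0.00047). Those of EIF3D were -0.30 ± 0.04 (adjusted p 0.00025), -0.54 ± 0.04 (adjusted p 1.2e-06) and -0.24 ± 0.04 (adjusted p 0.0013).

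EIF3B, part of the scaffold that holds the complex together, fell at both doses. It measured 50.3, 50.0 and 47.8 FPKM at 0 mM, 41.4, 39.4 and 39.6 FPKM at 20 mM and 39.9, 38.2 and 36.8 FPKM at 40 mM, and the treated doses overlapped. Its log2 change was -0.30 ± 0.04 at 20 mM (adjusted p 0.00052), -0.40 ± 0.04 at 40 mM (adjusted p 2.1e-05) and -0.10 between them (adjusted p 0.11). EIF3A, the largest subunit, held 88.4, 88.7 and 90.7 FPKM at 0 mM, 85.9, 87.6 and 86.1 FPKM at 20 mM and 72.8, 73.6 and 74.7 FPKM at 40 mM. It was not called at 20 mM (-0.05, adjusted p 0.3) and fell at 40 mM by 0.31 (adjusted p 1.9e-05).

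The remaining eIF3 subunits that fell at 40 mM were EIF3F, EIF3G, EIF3M, EIF3I and EIF3E, by 0.24, 0.18, 0.18, 0.15 and 0.12 on the log2 scale. Under TPM scaling EIF3M, EIF3I and EIF3E were no longer called there, with adjusted p of 0.065, 0.23 and 0.47, and EIF3E was lost in 6 of the 9 runs that left out a library. Between the doses that scaling left 4 of the 8 falls, with EIF3CL, EIF3F, EIF3I and EIF3M no longer called (adjusted p 0.19, 0.19, 0.13 and 0.52). EIF3H, EIF3J, EIF3L and EIF3C were called in no comparison, and their log2 changes at 40 mM lay between -0.04 and 0.03. Without replicate 3 of 40 mM, EIF3L was called at 20 mM (0.12, adjusted p 0.035) and EIF3C at 40 mM (-0.10, adjusted p 0.028). The open reading frames of EIF3C and EIF3CL are near-identical, so reads cannot be assigned with certainty. EIF3CL, listed at 136 FPKM against 69.2 for EIF3C at 0 mM, had a log2 change of 0.14 at 20 mM (adjusted p 0.044), a call lost in each run that left out a library of 0 or 20 mM with adjusted p from 0.066 to 0.14, and -0.01 at 40 mM (adjusted p 0.87). In counts over the 9 libraries EIF3C stood higher, at 359717 against 319616 for EIF3CL.

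In the group of the eIF4F cap complex, helicases and related factors, EIF4G1, EIF4G2 and the EIF4A helicases were lower at 40 than at 0 mM. EIF4B and EIF4G3 were higher. Of the group's 10 tested genes 1 rose and 3 fell at 20 mM, 2 rose and 7 fell at 40 mM, and 0 rose and 2 fell between the doses. The falls at 40 mM include EIF4G2 and EIF4A3. Falls were 30%, 70% and 20% of the 10, against 15.2%, 27.4% and 15.1% of all tested genes. Rises were 10%, 20% and 0%, against 16.3%, 28.8% and 14.3%. Under TPM scaling the 10 gave 2 higher and 4 lower at 40 mM and 1 and 1 between the doses. EIF4G1, the main scaffold that joins eIF4E, eIF4A and eIF3, held 78.5, 80.3 and 79.3 FPKM at 0 mM. At 20 mM it held 61.1, 57.8 and 54.3 FPKM and at 40 mM 60.7, 56.2 and 56.7 FPKM. The treated doses overlapped each other and lay below all untreated libraries, with log2 changes of -0.46 ± 0.05 (adjusted p 6.8e-05) and -0.49 ± 0.05 (adjusted p 1.1e-05). The related EIF4G2, a scaffold without the eIF4E site, changed by -0.30 ± 0.04 (adjusted p 0.00016) and -0.35 ± 0.04 (adjusted p 1.5e-05). EIF4G3 was not called at 20 mM and rose at 40 mM by 0.16 (adjusted p 0.021), a call lost when replicate 1 or replicate 2 of 0 mM was left out, with adjusted p of 0.072 and 0.065.

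EIF4A1 and EIF4A2 encode the closely related RNA helicases of the complex. EIF4A1 held 359, 342 and 343 FPKM at 0 mM, 281, 273 and 309.5 FPKM at 20 mM and 264, 264 and 221 FPKM at 40 mM. It fell in all 3 comparisons, with log2 changes of -0.28 ± 0.07 (adjusted p 0.012), -0.51 ± 0.07 (adjusted p 0.0001) and -0.24 ± 0.07 (adjusted p 0.026). The 20 mM call was lost without replicate 2 of 20 mM (adjusted p 0.055), and the call between the doses without replicate 3 of 20 mM (adjusted p 0.11) and under TPM scaling (adjusted p 0.13). The readthrough SENP3-EIF4A1 covers most of the gene on the same strand and was listed at 71.8 FPKM. EIF4A2 held 40.3, 41.0 and 43.3 FPKM at 0 mM, 36.2, 38.9 and 39.3 FPKM at 20 mM and 29.3, 31.1 and 27.7 FPKM at 40 mM. It was not called at 20 mM (-0.13, adjusted p 0.082, or 0.034 without replicate 3 of 40 mM) and fell by 0.54 at 40 mM (adjusted p 9.2e-06).

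EIF4B, which stimulates the helicase, rose from 95.7, 98.6 and 101 FPKM at 0 mM to 114, 117 and 119.6 FPKM at 20 mM and 116, 118 and 119.9 FPKM at 40 mM. Its log2 changes were 0.25 ± 0.04 (adjusted p 0.00066) and 0.23 ± 0.04 (adjusted p 0.00033), and the treated doses overlapped. EIF4H, a shorter relative of EIF4B, fell by 0.20 at 40 mM (adjusted p 0.026), and EIF4A3, a helicase of the exon junction complex, by 0.30 (adjusted p 0.019). Both calls were lost without replicate 1 or replicate 2 of 0 mM, with adjusted p of 0.092 and 0.071 for EIF4H and 0.056 and 0.051 for EIF4A3. TPM scaling gave them adjusted p of 0.21 and 0.094. EIF4E, the cap-binding protein, was low in FPKM, at 4.49, 4.38 and 4.70 without metformin, 3.97, 4.51 and 4.52 at 20 mM and 4.22, 3.97 and 3.24 at 40 mM. It was not called at 20 mM and fell at 40 mM by 0.28 (adjusted p 0.017). Without replicate 3 of 0 mM the adjusted p was 0.057, and under TPM scaling 0.085. In FPKM, a scale per transcript length, the processed copy EIF4EP2 was listed at 14.7, more than EIF4E itself. In counts over the 9 libraries the order was the other way, with 44078 for EIF4E and 7178 for its 4 listed copies together. Summing the copies with EIF4E left its calls as they were. EIF4E2, which binds caps in repressor complexes, was not called except without replicate 3 of 40 mM (0.15 at 40 mM, adjusted p 0.027, and 0.21 between the doses, adjusted p 0.012), with log2 changes of -0.05 and 0.07.

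The repressors of eIF4E moved in opposite directions. EIF4EBP1 held 118, 124 and 111 FPKM at 0 mM, 165, 161 and 160.3 FPKM at 20 mM and 157, 151 and 192 FPKM at 40 mM. All treated libraries exceeded all untreated ones, and the highest was replicate 3 of 40 mM. The log2 changes were 0.46 ± 0.08 (adjusted p 0.0018) and 0.47 ± 0.08 (adjusted p 0.00055), with 0.01 between the doses (adjusted p 0.94). EIF4EBP2, its paralog with the same eIF4E-binding role, held 10.5, 10.4 and 11.7 FPKM at 0 mM, 9.37, 9.04 and 9.40 FPKM at 20 mM and 7.24, 7.20 and 7.70 FPKM at 40 mM. It fell stepwise without overlap, with log2 changes of -0.23 ± 0.05 (adjusted p 0.008), -0.59 ± 0.05 (adjusted p 6.3e-06) and -0.36 ± 0.05 between the doses (adjusted p 0.0009). In FPKM, a scale per transcript length, EIF4EBP1 exceeded EIF4EBP2 at every dose. EIF4ENIF1, which carries eIF4E into the nucleus and into repressed granules, held 3.45, 3.67 and 3.75 FPKM at 0 mM, 3.98, 3.74 and 3.88 FPKM at 20 mM and 4.50, 3.90 and 4.12 FPKM at 40 mM. Its call at 40 mM (0.17 ± 0.07, adjusted p 0.045) was lost in 8 of the 9 runs that left out a library, with adjusted p from 0.056 to 0.16. DRG1, on the other strand, covers the whole gene.

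**Figure D2:**
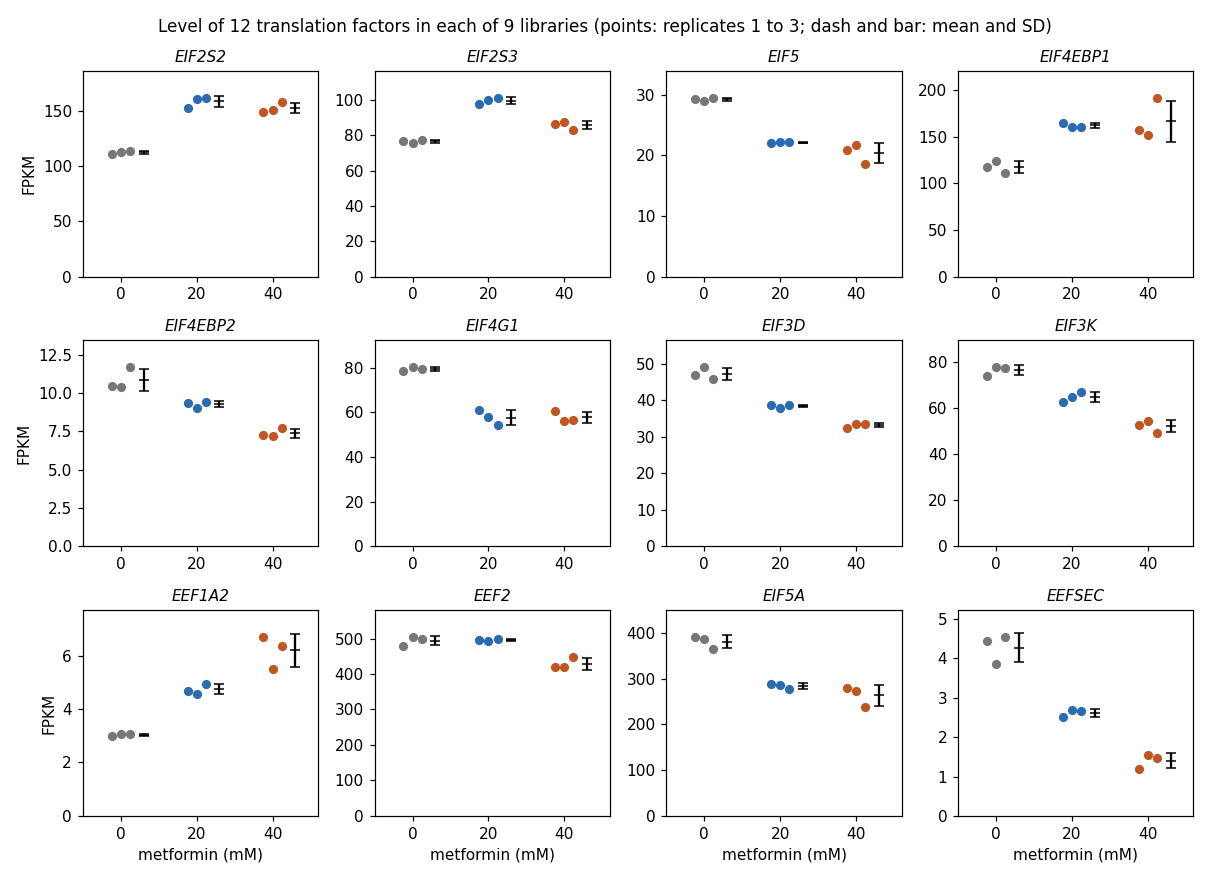
FPKM of 12 factors in each of the 9 libraries against metformin dose in mM. Points are replicates, the dash and bar give mean and SD for n = 3, and EIF2S2, EIF2S3, EIF4EBP1 and EEF1A2 sit above their untreated libraries at both doses while EIF5, EIF4EBP2, EIF4G1, EIF3D, EIF3K, EIF5A and EEFSEC sit below them.

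The elongation factors eEF1 and eEF2 held the most abundant transcripts of the set, but the largest changes were in its scarcer ones. Of 8 tested genes 3 rose and 1 fell at 20 mM, 2 rose and 4 fell at 40 mM, and 1 rose and 5 fell between the doses. Falls were 12.5%, 50% and 62.5% of the 8, against 15.2%, 27.4% and 15.1% of all tested genes. Rises were 37.5%, 25% and 12.5%, against 16.3%, 28.8% and 14.3%. Under TPM scaling the 8 gave 3 higher and 3 lower at 40 mM and 1 and 3 between the doses. EEF1A1, which delivers aminoacyl transfer RNA, was the highest of the 65, with 1498, 1543 and 1487 FPKM at 0 mM, 1589, 1656 and 1687 FPKM at 20 mM and 1491, 1536 and 1312 FPKM at 40 mM. The 20 mM libraries lay above all others, but neither dose was called against 0 mM (0.12, adjusted p 0.088, and -0.10, adjusted p 0.12). Without replicate 3 of 40 mM it was called higher at 20 mM (adjusted p 0.0023), and without replicate 2 of 40 mM lower at 40 mM (adjusted p 0.042). At 40 against 20 mM EEF1A1 fell by 0.22 on the log2 scale (adjusted p 0.0085), a call lost under TPM scaling (adjusted p 0.075). Its 25 listed copies took 6.63% of the counts of gene and copies together, EEF1A1P5 alone reaching 355 FPKM.

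EEF1A2, the isoform known from muscle and neurons (ENSG00000101210, chromosome 20, 63488013 to 63499239, minus strand), was the only factor of the 63 that rose in all 3 comparisons. Its libraries stood at 2.99, 3.05 and 3.07 FPKM at 0 mM, 4.70, 4.57 and 4.94 FPKM at 20 mM and 6.70, 5.52 and 6.37 FPKM at 40 mM, with no overlap between doses. The log2 changes were 0.64 ± 0.08 (adjusted p 0.00016), 0.99 ± 0.08 (adjusted p 1.9e-06) and 0.36 ± 0.07 between the doses (adjusted p 0.0055). Even so EEF1A2 remained far below EEF1A1 in FPKM.

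EEF2, the translocation factor, was not called at 20 mM and fell at 40 mM. It measured 479, 505 and 499 FPKM at 0 mM, 495, 493 and 499 FPKM at 20 mM and 419, 419.8 and 448 FPKM at 40 mM. The estimated change at 20 mM was 0.001 ± 0.04 (adjusted p 0.98), against -0.24 ± 0.04 at 40 mM (adjusted p 0.00024) and -0.24 ± 0.04 between the doses (adjusted p 0.001). EEF1B2, a nucleotide exchange subunit for eEF1A, held 132, 131 and 126 FPKM at 0 mM, 111, 117 and 118 FPKM at 20 mM and 95.1, 102 and 83.4 FPKM at 40 mM. It fell at 40 mM by 0.50 (adjusted p 6e-05) and was not called at 20 mM (adjusted p 0.064), though none of its 3 libraries there reached the untreated range. Without replicate 2 or replicate 3 of 40 mM EEF1B2 was called lower at 20 mM (adjusted p 0.037 and 0.006). EEF1G, the scaffold of the exchange complex, rose at 20 mM by 0.42 ± 0.08 (adjusted p 0.0037), from 286, 309.5 and 253 FPKM to 366, 384 and 388 FPKM. The gene model AP002990, on the same strand, spans nearly all of EEF1G and was listed at 32.2 FPKM. At 40 mM EEF1G held 282, 354 and 325 FPKM and was not called (adjusted p 0.16). It was called higher there without replicate 1 of 40 mM (0.23, adjusted p 0.025) and under TPM scaling (0.22, adjusted p 0.042). The fall of EEF1G between the doses (-0.27, adjusted p 0.032) was lost in 4 of the 9 runs that left out a library, with adjusted p from 0.052 to 0.096. That call was also lost under TPM scaling (adjusted p 0.084) and under limma (adjusted p 0.075 with either pseudocount). EEF1D, another exchange subunit, fell at 40 mM by 0.21, a call lost under TPM scaling (adjusted p 0.19), under limma (adjusted p 0.07 and 0.071), and without replicate 1 or replicate 2 of 0 mM (adjusted p 0.078 and 0.067). Over left-out libraries the change of EEF1D ran from -0.26 to -0.11, the latter without replicate 3 of 40 mM. EEF1E1, a scaffold of the complex of transfer RNA synthetases, rose by 0.23 and 0.19 (adjusted p 0.037 and 0.048). Without replicate 3 of 0 mM these adjusted p were 0.13 and 0.16, and other left-out libraries also ended the calls.

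EEFSEC, which delivers selenocysteine transfer RNA to the UGA codons of selenoprotein messengers (ENSG00000132394, chromosome 3, 128153481 to 128408646, plus strand), had the largest change of the 63. It fell from 4.43, 3.85 and 4.55 FPKM at 0 mM to 2.50, 2.70 and 2.65 FPKM at 20 mM and 1.19, 1.54 and 1.48 FPKM at 40 mM. These levels rested on 762 to 903 counts per library at 0 mM, 498 to 526 at 20 mM and 241 to 312 at 40 mM, and no doses overlapped. The log2 changes were -0.71 ± 0.13 (adjusted p 0.002), -1.64 ± 0.13 (adjusted p 2.5e-06) and -0.93 ± 0.13 between the doses (adjusted p 0.00064). On a linear scale the level at 40 mM was 3.13-fold lower than at 0 mM. All 3 calls were kept in each run that left out a library.

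Among the eIF5A genes the major isoform fell and the minor one was not called. EIF5A, which carries the hypusine modification and helps ribosomes through difficult peptide bonds, held 392, 387 and 366 FPKM at 0 mM, 289, 286 and 278 FPKM at 20 mM and 279, 273 and 238 FPKM at 40 mM. Its log2 changes were -0.43 ± 0.06 (adjusted p 0.00033) and -0.57 ± 0.06 (adjusted p 1.2e-05). All treated libraries lay below all untreated ones, and the treated doses overlapped each other (adjusted p 0.084 between them). EIF5A2, the isoform of restricted expression, held 1.47, 1.47 and 1.53 FPKM at 0 mM, 1.29, 1.52 and 1.504 FPKM at 20 mM and 1.98, 1.51 and 1.62 FPKM at 40 mM. The changes of EIF5A2 were -0.05 ± 0.12 (adjusted p 0.77) and 0.16 ± 0.12 (adjusted p 0.29). EIF5AL1, a near-copy of EIF5A, held 5.26, 5.09 and 5.28 FPKM at 0 mM, 3.90, 3.83 and 3.70 FPKM at 20 mM and 4.03, 3.58 and 3.36 FPKM at 40 mM. Its values followed those of EIF5A, and reads of the pair may be shared.

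Among enzymes that modify the elongation factors falls outnumbered rises. Of 7 tested genes 1 rose and 4 fell at each dose against 0 mM, and 0 rose and 3 fell between the doses. Falls were 57.1%, 57.1% and 42.9% of the 7, against 15.2%, 27.4% and 15.1% of all tested genes. Rises were 14.3%, 14.3% and 0%, against 16.3%, 28.8% and 14.3%. EEF2K, the kinase that inhibits eEF2, held 4.37, 4.21 and 4.43 FPKM at 0 mM, 3.99, 3.38 and 3.84 FPKM at 20 mM and 3.12, 2.99 and 3.28 FPKM at 40 mM. The log2 change was -0.22 ± 0.07 at 20 mM (adjusted p 0.033), -0.51 ± 0.07 at 40 mM (adjusted p 0.00011) and -0.29 ± 0.07 between them (adjusted p 0.01). The 20 mM call was lost in 5 of the 9 runs that left out a library, with adjusted p from 0.053 to 0.12.

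EEF2KMT, a lysine methyltransferase of eEF2, held 4.02, 3.83 and 3.71 FPKM at 0 mM, 3.18, 3.21 and 3.01 FPKM at 20 mM and 2.41, 2.79 and 2.19 FPKM at 40 mM. It fell at 40 mM by 0.67 (adjusted p 0.00024). At 20 mM (-0.30, adjusted p 0.047) its call was lost in 7 of the 9 runs, with adjusted p from 0.054 to 0.14. EEF1AKMT1, a lysine methyltransferase of eEF1A, held 4.69, 4.28 and 4.57 FPKM at 0 mM, 2.80, 2.85 and 2.87 FPKM at 20 mM and 2.29, 1.85 and 1.23 FPKM at 40 mM. The 40 mM libraries spread widely and replicate 3 was the lowest, at 124 counts against 261 and 212. Its log2 change was -1.36 ± 0.19 at 40 mM (adjusted p 0.00014), kept in each run that left out a library. The 20 mM change of -0.67 ± 0.19 (adjusted p 0.02) lost its call in 5 of them, with adjusted p from 0.051 to 0.061. EEF1AKNMT, which methylates lysine and the amino terminus of eEF1A, fell at both doses by 0.39 and 0.47. EEF1AKMT2 rose by 0.27 and 0.22, calls lost without replicate 2 of 0 mM, among other libraries, with adjusted p of 0.088 and 0.1. EEF1AKMT3 and EEF1AKMT4 were not called, with log2 changes at 40 mM of 0.02 and -0.11.

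The factors whose transcripts begin with a pyrimidine tract, such as the printed windows of EEF1A1 and EEF2, are given apart from the others. Of the 13 with the tract 0 rose and 11 fell at 40 against 20 mM, with a median log2 change of -0.24. Of the 36 other tested factors with a RefSeq start 0 rose and 8 fell, with a median of -0.09. The 2 with the tract that did not fall were EIF4B (-0.02) and EIF2A (0.10). The calls of EIF2S3B, EIF3F and EIF3M among the 11 were lost in some runs that left out a library, with adjusted p up to 0.13, 0.091 and 0.11. At 20 against 0 mM 4 of the 13 were higher and 2 lower, against 4 of the 36 higher and 13 lower. At 40 against 0 mM 3 of the 13 were higher and 7 lower, against 5 and 19 of the 36.

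The tract was searched for after results of these data were known, so these counts describe the 49 genes and were given no test. Outside the set, 678 tested genes carried the tract, and 11.8% of them rose and 21.5% fell at 40 against 20 mM, against 15.7% and 15.6% of the 8162 tested genes without it. With ribosomal protein genes left out as well, 631 remained, of which 12.7% rose and 19.7% fell. TPM scaling changed the counts between the doses to 1 higher and 7 lower of the 13, and 2 higher and 4 lower of the 36. Without replicate 3 of 40 mM they were 0 and 11 of the 13, and 2 and 9 of the 36. The 9 genes drawn from textbook knowledge as TOP messengers (EEF1A1, EEF1B2, EEF1D, EEF1G, EEF2, EIF3E, EIF3F, EIF3H and EIF4B) had 2 higher and 0 lower at 20 mM, 1 higher and 5 lower at 40 mM, and 0 higher and 6 lower between the doses. Of all tested genes 16.3% rose and 15.2% fell at 20 mM, 28.8% and 27.4% at 40 mM, and 14.3% and 15.1% between the doses. Under TPM scaling the 9 textbook genes had 2 higher and 3 lower at 40 mM, and 0 higher and 3 lower between the doses. The textbook list and the tract search differ: EEF1G has no tract at its RefSeq start and is counted among the 36, where it fell between the doses. EEF1D, EIF3E and EIF3H had no matched start and are in neither tract group.

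**Figure D3:**
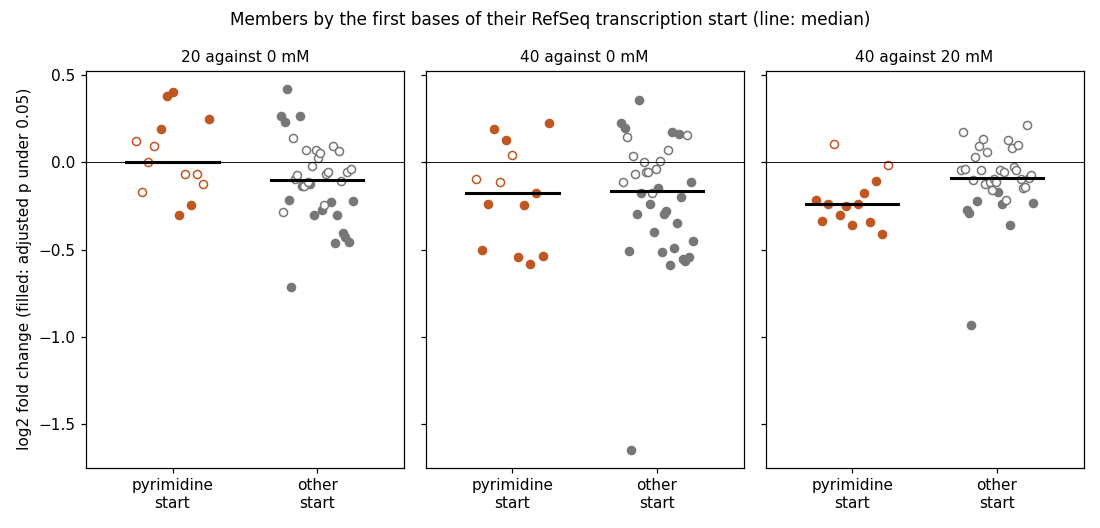
Log2 fold change of the 49 tested factors with a RefSeq start site in the 3 comparisons, split by whether the start carries a pyrimidine tract (orange, 13 genes) or not (grey, 36 genes). Filled points had an adjusted p under 0.05 and lines are medians; at 40 against 20 mM the orange median lies at -0.24 and the grey one at -0.09.

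Further motifs were looked for in the RefSeq promoter windows, 250 bases before to 50 bases after a start, on both strands. The letters CACGTG, bound by factors such as MYC and TFEB, occurred in 14 of the 51 factors (27.5%) and in 8.78% of all genes with such windows. The latter include genes too low to be tested here. Of the 13 tested factors with CACGTG 2 rose and 8 fell at 40 mM, and of the 36 without it 6 rose and 18 fell. At 20 mM 2 rose and 4 fell of the 13, against 6 and 11 of the 36, and between the doses 0 rose and 4 fell of the 13, against 0 and 15 of the 36. Of all tested genes 15.2% fell at 20 mM, 27.4% at 40 mM and 15.1% between the doses, and 16.3%, 28.8% and 14.3% rose. The letters TGATGCAA, a form of the element bound by ATF4, occurred in 0 of the 51 and in 1.08% of all genes, which says only that these letters are not in these windows.

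Ratios of FPKM within a library compare partners without any scaling between libraries. Of the 18 comparisons made, none could give an exact permutation p below 0.10, the smallest that 3 against 3 libraries allow, and the smallest adjusted over the 18 was 0.138. The ratio of EIF4EBP1 to EIF4E was 26.2, 28.4 and 23.6 in untreated libraries, 41.5, 35.6 and 35.4 in those at 20 mM, and 37.2, 38.1 and 59.2 in those at 40 mM. Both doses lay above the untreated libraries, by 0.53 and 0.75 on the log2 scale (two-sided exact permutation p 0.10 for each). The highest value was that of replicate 3 of 40 mM, without which the difference at 40 mM was 0.53. FPKM divides by length, and the deposited values imply 985 bases for EIF4EBP1 and 15758 for EIF4E. In counts the untreated libraries held 8751, 9012 and 8090 for EIF4EBP1 and 5341, 5086 and 5487 for EIF4E. The size of this ratio thus depends on those lengths. EEF1A2 to EEF1A1 differed by 0.52 at 20 mM and 1.09 at 40 mM, and EIF5A2 to EIF5A by 0.37 and 0.72, again with no overlap (exact permutation p 0.10 for each).

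EEF2K to EEF2 was lower at both doses, by -0.22 and -0.27 on the log2 scale, without overlap with 0 mM (exact permutation p 0.10 for each). EIF4A2 to EIF4A1 differed by 0.15 at 20 mM without overlap, and by -0.02 at 40 mM with overlap (exact permutation p 0.10 and 0.70). EIF2B5 to EIF2S1, the catalytic exchange subunit against its regulated substrate, differed by -0.11 at 20 mM and -0.06 at 40 mM (exact permutation p 0.10 and 0.60). These are ratios of transcripts and say nothing of protein or phosphorylation.

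**Figure D4:**
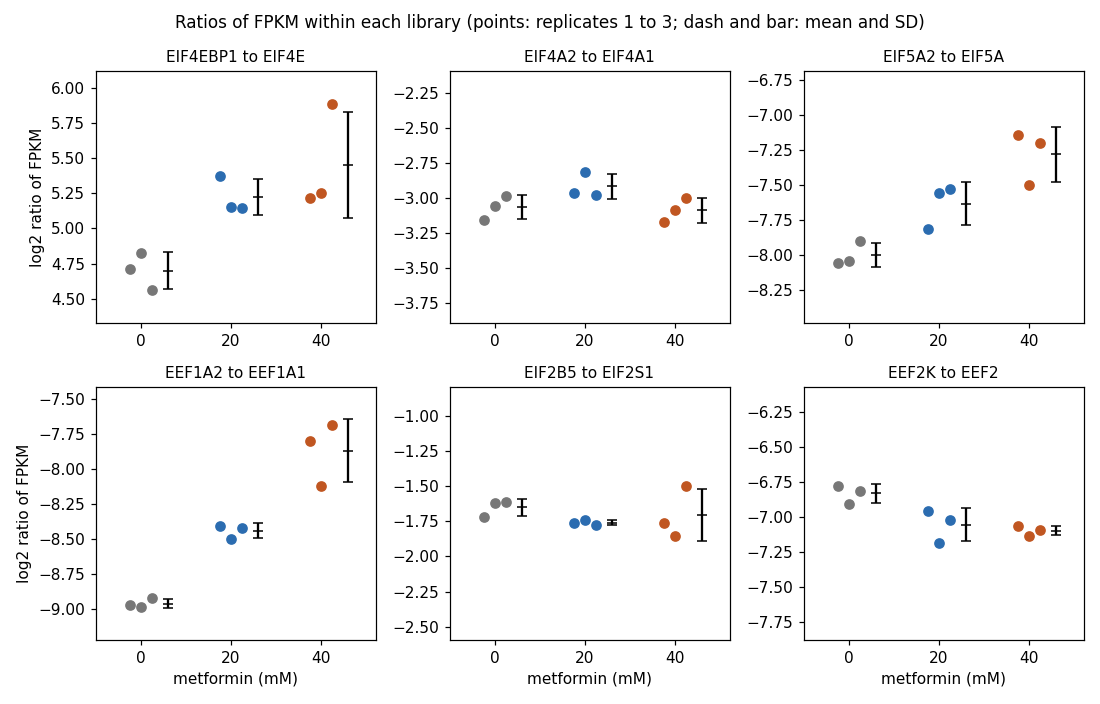
Log2 ratio of FPKM within each library for 6 pairs of factors against metformin dose in mM; points are replicates, and the dash and bar give mean and SD for n = 3. The ratios of EIF4EBP1 to EIF4E, EEF1A2 to EEF1A1 and EIF5A2 to EIF5A lie above the untreated libraries at both doses, and that of EEF2K to EEF2 below them.

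Of 38 other genes of the translation pathway, 37 were tested. Of these 6 rose and 11 fell at 20 mM, 9 and 15 at 40 mM, and 6 and 7 between the doses. TPM scaling turned the balance to 13 higher and 11 lower at 40 mM, and 7 higher and 2 lower between the doses. Of all 12394 tested genes that scaling had 4437 higher and 2493 lower at 40 mM, and 2832 and 1153 between the doses. With TMM scaling 28.8% of all tested genes were higher and 27.4% lower at 40 mM. Among 8 kinases upstream of the factors 3 rose and 4 fell at 40 mM. MKNK2, which phosphorylates eIF4E, rose by 1.11 ± 0.07 (adjusted p 6.3e-07), while MKNK1 of the same list fell by 0.38 ± 0.06 (adjusted p 0.00018). MTOR fell by 0.25 on the log2 scale (adjusted p 0.0012). Among 11 initiation helpers and repressors 4 rose and 6 fell at 40 mM. PDCD4, which sequesters eIF4A, rose by 0.58 ± 0.07 (adjusted p 5.7e-05). Among 10 genes of release, recycling and poly(A) binding 2 rose and 3 fell, near those shares, and 4 were higher and 2 lower under TPM scaling. ABCE1, which splits ribosomes after termination, changed by -0.37 ± 0.04 (adjusted p 1.5e-05). Among 8 tested diphthamide and hypusine enzymes 0 rose and 2 fell at 40 mM, which TPM scaling changed to 2 higher and 1 lower. DPH2, of the pathway that modifies eEF2, changed by -0.51 ± 0.06 (adjusted p 3.6e-05), and DHPS, which starts the hypusine modification of eIF5A, by -0.23 ± 0.08 (adjusted p 0.026).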

How the data were processed

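The analysis started from 1 deposited table of the whole series, which holds a read count and an FPKM for every gene in every library, per the file headers. Per the submitters' processing notes, StringTie 2.1.6 was among the tools. Libraries were strand-specific and from oligo(dT)-captured RNA, per the labels' protocols. No source used here gives the aligner, genome build, annotation or strand used in counting. All 65 factors overlap their entries in GENCODE release 29, 19 of them with identical start and end.

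Genes averaging 1 FPKM or more across all libraries (12394, holding 98.7% of the counts) were tested with edgeR 4.0.16 (R 4.3.3) on the deposited counts, scaled by TMM, all 9 libraries in 1 fit. Adjusted p-values are Benjamini-Hochberg over all tested genes, called under 0.05. SEs were obtained by dividing each log2 fold change by the root of its F. Limma 3.58.1 and DESeq2 1.42.0 were alternatives. The code was tested on simulated data. At 65738242 to 75629413 counts per library, the spread between libraries limits precision more than counting does for all but the rarest factors.

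The factors, role and pathway lists, ratios and start features were chosen with earlier results of these data known. Values in each library are given for 15 chosen genes, for up to 3 called members of each role list with the largest change at 40 mM, and for the largest changes between the doses. EIF2S3, EIF3A, EIF4B and EEF1G were added after their values were seen. Sequences come from RefSeq (GRCh38.p14).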

Additional observations from a re-analysis of the deposited data

How the results depend on the processing

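The 87 results of the named factors were recomputed under each alternative. With copies summed, an alternative chosen after seeing the data, as were the tract counts under other settings, none of the 87 changed its direction or its side of the threshold. A fold threshold of 0.3 on the log2 scale left 6 factors higher and 10 lower at 20 mM, 4 and 19 at 40 mM, and 8 lower between the doses. Of all 12394 tested genes it left 1142 higher and 820 lower at 20 mM, and 2419 and 2179 at 40 mM. Between the doses it left 793 and 938. Without the expression filter 7 factors were higher at 40 mM, and 3862 of 37118 genes. Between the doses TPM scaling gave 4 factors higher and 14 lower, and limma with a pseudocount of 1 or 0.1 gave 3 higher. Of all tested genes TPM scaling gave 2832 higher and 1153 lower there, and limma 2112 and 2076 higher. With 1 library left out, the factors higher and lower ranged from 7 to 16 and 13 to 24 at 20 mM, 6 to 12 and 28 to 34 at 40 mM, and 1 to 3 and 17 to 27 between the doses. Those of all tested genes ranged from 1432 to 2498 and 1274 to 2468 at 20 mM. At 40 mM they ranged from 3092 to 3631 and 2957 to 3504, and between the doses from 1142 to 1966 and 1266 to 2099. Changes near 0 turned sign, all of results not called. EEF2 at 20 mM was -0.000763 under median-of-ratios scaling and under DESeq2, and from -0.0131 to 0.0116 over left-out libraries. EIF4EBP1 between the doses was -0.00394 without the filter and from -0.11 to 0.0775 over left-out libraries. EIF4G1 between the doses was 0.0416 under TPM scaling, 0.00399 and 0.00406 under limma with pseudocounts of 1 and 0.1, and from -0.0704 to 0.0159 over left-out libraries. Over left-out libraries EIF1 at 40 mM ran from -0.0118 to 0.11, EIF2S1 at 20 mM from -0.0443 to 0.0137 and EIF5A2 at 20 mM from -0.10 to 0.0185. On the log2 scale, ratios over left-out libraries ran from -0.0646 to 0.0236 for EIF4A2 to EIF4A1 at 40 mM, -0.16 to 0.0186 and -0.0493 to 0.13 for EIF2B5 to EIF2S1 at 40 mM and between the doses, and -0.11 to 0.00477 for EEF2K to EEF2 between the doses. The labels number the replicates 1 to 3 at each dose, but deviations of same-numbered libraries from their dose means correlated at only -0.10 to 0.19 and nothing says that a number pairs samples. With the replicate block 12 factors were higher and 18 lower at 20 mM, 11 and 34 at 40 mM, and 1 and 25 between the doses. Of all tested genes 2199 were then higher and 2046 lower at 20 mM, and 3668 and 3547 at 40 mM. Between the doses 1948 were higher and 2034 lower.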
